A study of Danio rerio with 30 samples.

Results

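Ribosome biogenesis factors are the proteins that make and assemble ribosomes without being part of the finished particle. This account follows 55 such genes in zebrafish neuromast cells, the cells of the small mechanosensory organs of the lateral line. The genes were chosen by name, by matching a list of 55 symbols to the 32520 gene rows of the count table. Of these, 53 matched by symbol and 2 by another name of the same gene (PES1 for pes and PWP2 for pwp2h). Symbols are printed as the name table gives them, often in human style. By role, 3 encode the core proteins of box C/D small nucleolar ribonucleoproteins (snoRNPs), 4 those of box H/ACA snoRNPs, 28 act on the small subunit, 16 on the large subunit, and 3 are subunits of RNA polymerase I. The remaining gene is ncl, which encodes the nucleolar RNA-binding protein nucleolin. All 55 passed the filter on low counts and were among the 22000 genes tested.

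As background, ribosomes are built mainly in the nucleolus. RNA polymerase I transcribes a long precursor rRNA, on which box C/D snoRNPs guide ribose methylation and box H/ACA snoRNPs guide pseudouridylation. Small subunit factors fold and cut one end of that precursor in a large particle, the processome, while large subunit factors process the other end and escort it to the cytoplasm. The pathway is commonly high in cells that grow or prepare to divide, and in the lateral line support cells divide after hair cells are lost.

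The cells were mCherry-positive cells sorted from trypsin-dissociated larvae carrying the she:mCherry reporter, and the labels call them neuromast cells of the posterior lateral line. Larvae were 5 days post fertilization and were either mutant for isl1a (allele isl1apsi97), a gene of a LIM homeodomain transcription factor, or siblings of the mutants. The labels do not say whether siblings were wild type or heterozygous. Each genotype was taken in homeostasis, or 3 h after 30 min in 300 uM neomycin, an antibiotic that kills lateral line hair cells. RNA-seq gave 4 groups of 3 libraries, described as biological triplicates. Separate clutches are not stated, and the p-values cover only the spread among these libraries, which may be technical. The comparisons therefore address the response to neomycin in each genotype, the difference between genotypes without and after it, and whether the responses differed. In no group were hair cells killed by another means. A direct effect of neomycin and the loss of hair cells therefore cannot be told apart.

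Each library held 23918226 to 30354161 counts in genes. ISL1, taken here as isl1a, had 3351 to 6634 counts in sibling libraries and 0 to 35 in mutant libraries, so the labels held for the targeted gene. The second sibling library at 3 h was the least like the rest, with the lowest mean correlation with its own group (0.925). The main results are also given without it. Hair cell markers were detected in every group, with a summed level of 32300 to 39300 CPM (gene counts scaled to library size after TMM normalization) in siblings in homeostasis and 15700 to 20100 CPM in mutants in homeostasis. At 3 h the sums were 2920 to 9050 CPM in siblings and 1560 to 3030 CPM in mutants. Support cell markers, which include the targeted gene isl1a, summed to 5800 to 10400 CPM across all 12 libraries. None of the marker genes found in the count table was at 0 in all libraries. Of 265 names looked up for the marker and pathway lists, 33 matched no row. A further 27 matched only without a final a or b. Some names matched more than 1 row, and each such row is counted. In bulk samples such as these, fewer cells of a type and less RNA per cell cannot be told apart.

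The ribosome biogenesis factors split the 12 libraries by treatment. Their summed level was 3720, 2530 and 3070 CPM in siblings in homeostasis and 4260, 3630 and 4410 CPM in mutants in homeostasis (replicates 1, 2 and 3, the order used throughout). After neomycin it was 8030, 13000 and 8490 CPM in siblings and 8520, 11100 and 9500 CPM in mutants. Every 3 h library was above every homeostasis library, and the genotypes overlapped both in homeostasis and at 3 h. Siblings in homeostasis had the lowest group mean for 55 of the 55 genes, against 31.8% of all tested genes. The highest mean belonged to siblings at 3 h for 24 genes and to mutants at 3 h for 31, against 32.3% and 24.3% of all tested genes. Sibling replicate 2 in homeostasis was the lowest of the 12 libraries for 52 genes. It was below both others of its group for 52 genes, against 32.3% of all tested genes.

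**Figure D1:**
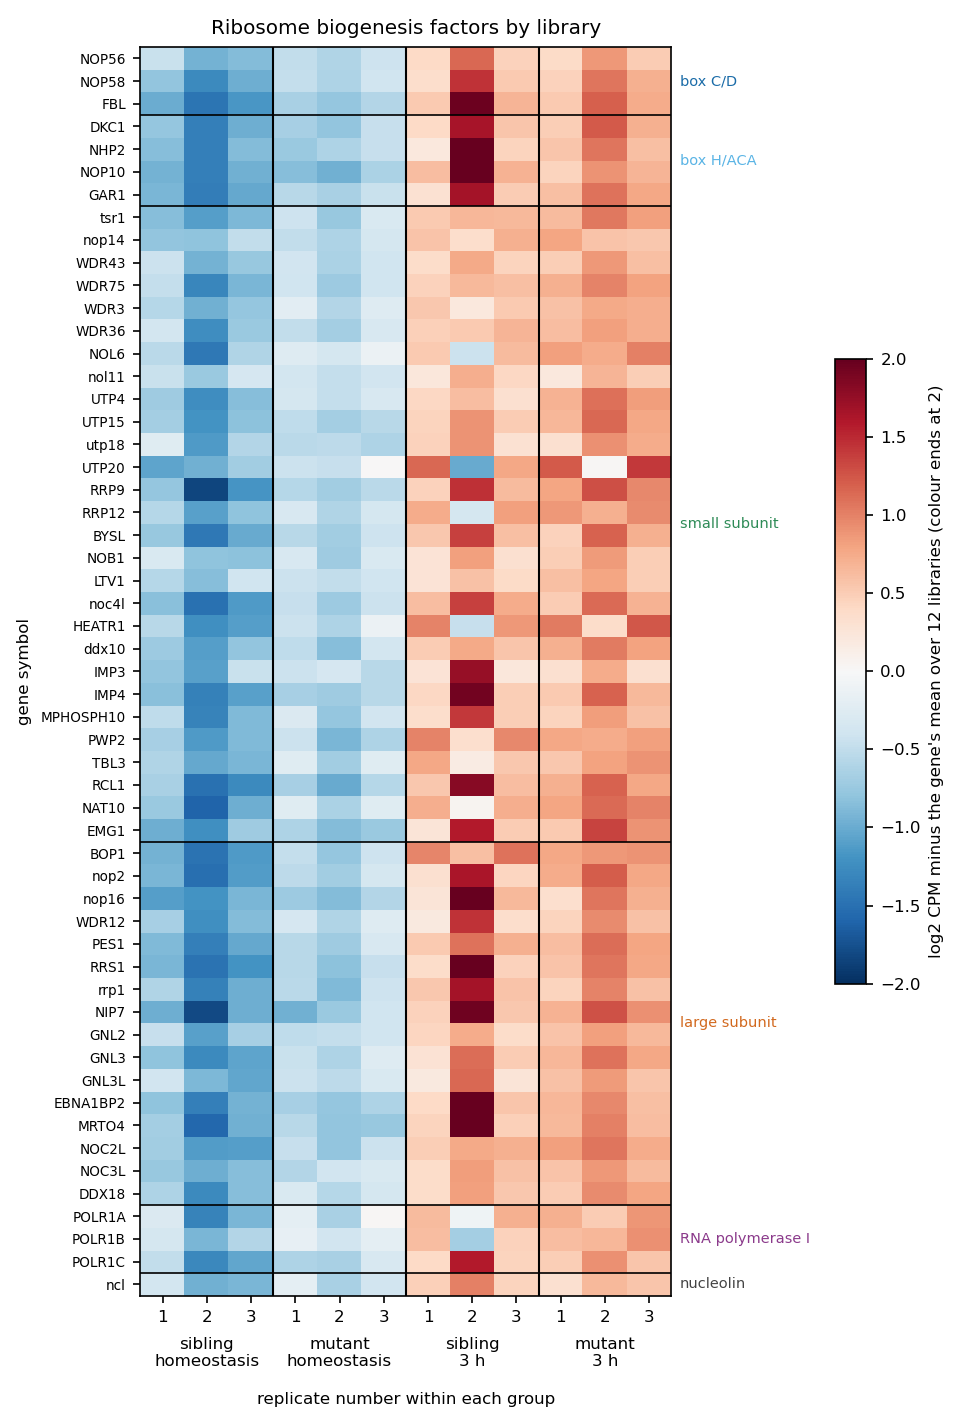
Level of each of the 55 genes (vertical axis, gene symbols grouped by role) in each of the 12 libraries (horizontal axis, replicate number within each group). Colour gives the log2 CPM minus the gene's mean over the 12 libraries, and the 6 homeostasis columns are mostly blue while the 6 columns at 3 h are mostly red, with UTP20, HEATR1, NOL6 and POLR1B low in sibling replicate 2 at 3 h.

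In siblings, all 55 genes had a positive log2 fold change, where 55.8% of all tested genes did. Of these, 54 rose by 3 h after neomycin and none fell (edgeR's quasi-likelihood test, Benjamini-Hochberg adjusted p under 0.05 over all tested genes). Over all tested genes, 11.2% rose and 10.8% fell. The median log2 fold change of the 55 was 1.62, against 0.10 for all tested genes, and the range ran from 0.83 for POLR1B to 2.55 for NOP10. The exception was POLR1B (adjusted p = 0.052). All 55 rose without sibling replicate 2 at 3 h, with a median of 1.39 and values from 0.77 to 2.15. The 3 libraries of each group did not overlap for 53 genes, where 17.5% of all tested genes had 3 h libraries above homeostasis libraries, and UTP20 and POLR1B overlapped.

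In mutants, 53 of the 55 genes rose and none fell, where 6.95% of all tested genes rose and 9.56% fell. The median log2 fold change was 1.29, against −0.04 for all tested genes, with values from 0.88 for nol11 to 1.70 for EMG1. UTP20 (1.28, adjusted p = 0.075) and IMP3 (0.91, adjusted p = 0.11) did not pass. In all 55 genes the 3 h libraries lay above the homeostasis libraries, against 20.8% of all tested genes, and in none below, against 22.7%. Fewer calls held when single mutant libraries were left out. The count was 38, 36 and 42 without mutant replicates 1, 2 and 3 in homeostasis and 47, 39 and 41 without mutant replicates 1, 2 and 3 at 3 h. It was 52 to 55 when any 1 sibling library was left out, and 35 genes were called whichever of the 12 libraries was dropped.

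Among the box C/D snoRNP proteins, all 3 rose in both genotypes. FBL, the rRNA methyltransferase fibrillarin, was at 145, 104 and 128 CPM in siblings in homeostasis and 412, 1120 and 461 CPM in siblings at 3 h. In mutants it was at 184, 168 and 191 CPM in homeostasis and 412, 656 and 479 CPM at 3 h. All 6 libraries at 3 h were above all 6 in homeostasis, and replicate 2 was the highest in each 3 h group. The log2 fold change of FBL was 2.40 ± 0.35 (SE) in siblings (adjusted p = 0.00046) and 1.51 ± 0.34 in mutants (adjusted p = 0.0089). NOP58 and NOP56, the scaffold proteins of the same particle, rose by 1.85 ± 0.28 and 1.45 ± 0.24 in siblings (adjusted p = 0.00064 and 0.001) and by 1.26 ± 0.28 and 1.1 ± 0.24 in mutants (adjusted p = 0.0083 and 0.0069). NOP58 went from 148 to 208 CPM in siblings in homeostasis to 458, 976 and 515 CPM at 3 h, and NOP56 from 165 to 233 CPM to 421, 708 and 437 CPM. The replicate 2 library again exceeded the others of its group at 3 h.

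The 4 box H/ACA proteins rose in both genotypes as well. DKC1, the pseudouridine synthase dyskerin, was at 133, 87.7 and 115 CPM in siblings in homeostasis and 298, 708 and 332 CPM at 3 h. Mutants had 142, 131 and 164 CPM of DKC1 in homeostasis and 319, 531 and 369 CPM at 3 h. The 3 h libraries were apart from the homeostasis libraries in each genotype. DKC1 rose by 2.0 ± 0.33 in siblings (adjusted p = 0.001) and by 1.48 ± 0.32 in mutants (adjusted p = 0.0074). NOP10, a small core protein that contacts the catalytic domain, was at 27.9, 20.8 and 27.4 CPM in siblings in homeostasis and 82.1, 276 and 86.8 CPM at 3 h, and its mutant levels were 29.5, 27.6 and 34.5 CPM and then 72.4, 99.9 and 85.6 CPM. The 276 CPM of sibling replicate 2 was over 3 times the level of either other library of that group. NOP10 rose by 2.55 ± 0.40 in siblings (adjusted p = 0.00078), or by 1.69 without that library, and by 1.49 ± 0.39 in mutants (adjusted p = 0.019). The mutant call of NOP10 was lost without mutant replicates 1 or 2 in homeostasis or mutant replicates 2 or 3 at 3 h (adjusted p from 0.051 to 0.079). GAR1, the fourth core protein besides NHP2, rose by 2.05 ± 0.32 in siblings (adjusted p = 0.00065) and 1.38 ± 0.31 in mutants (adjusted p = 0.0086). NHP2 rose by 2.13 in siblings, or by 1.3 without sibling replicate 2 at 3 h, and by 1.36 in mutants. Its mutant call was lost without any 1 of the 6 mutant libraries (adjusted p from 0.052 to 0.11).

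The small subunit factors were the largest group, and 28 of 28 rose in siblings and 26 in mutants. Their median log2 fold change was 1.47 in siblings and 1.27 in mutants. tsr1, a GTPase-like factor of late small subunit assembly, was at 57, 48.1 and 55.2 CPM in siblings in homeostasis and 148, 163 and 161 CPM at 3 h, and in mutants at 77.2, 60.7 and 83 CPM and then 160, 214 and 182 CPM. The groups of each genotype were far apart, and sibling replicate 2 was close to the others of its group. tsr1 rose by 1.56 ± 0.18 in siblings (adjusted p = 9.2e-05) and 1.33 ± 0.18 in mutants (adjusted p = 0.0004).

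noc4l, whose yeast counterpart binds Nop14 in the processome, was at 25.4, 16.2 and 20.8 CPM in siblings in homeostasis and 69.7, 117 and 76.1 CPM at 3 h. Its mutant libraries held 33.1, 27.4 and 33.8 CPM and then 64.6, 99.9 and 73.5 CPM. The homeostasis groups did not overlap with each other, the mutants being higher, while the 3 h groups overlapped. noc4l rose by 2.07 ± 0.26 in siblings (adjusted p = 0.00015) and 1.34 ± 0.25 in mutants (adjusted p = 0.0032). ddx10, a DEAD-box RNA helicase, was at 44.3, 34.4 and 42.5 CPM in siblings in homeostasis and 105, 124 and 108 CPM at 3 h, and at 51.9, 40.7 and 57 CPM and then 120, 151 and 128 CPM in mutants. It rose to a like degree in both, by 1.48 ± 0.19 (adjusted p = 0.00017) and 1.42 ± 0.19 (adjusted p = 0.00032).

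Subcomplexes of the processome rose together, with different sizes. Of the proteins that bind first to the precursor, the counterparts of the yeast UtpA complex, UTP15, UTP4, WDR75, WDR43 and nol11 rose by 1.52, 1.38, 1.43, 1.23 and 0.97 in siblings and 1.45, 1.27, 1.34, 1.12 and 0.88 in mutants. HEATR1, the largest protein of that complex, rose by 1.52 in siblings (adjusted p = 0.0085), against 1.3 in mutants (adjusted p = 0.023). The alternative fits changed the tool, the scaling, the filter or the libraries used. For HEATR1 the mutant call was lost in 5 of them, each of which left out a single mutant library (adjusted p from 0.051 to 0.11). In the UtpB complex, PWP2, TBL3, WDR36, WDR3 and utp18 rose by 1.68, 1.36, 1.3, 1.20 and 1.18 in siblings and by 1.43, 1.13, 1.22, 1.03 and 1.24 in mutants. Of the proteins that join the guide snoRNA of the processome, RRP9 was at 2.13, IMP4 at 2.20, IMP3 at 1.69 and MPHOSPH10 at 1.70 in siblings, and at 1.63, 1.46, 0.91 and 1.1 in mutants. The sibling values were 1.71, 1.49, 0.95 and 1.25 without sibling replicate 2 at 3 h. All of these passed the test in siblings, and in mutants all but IMP3. The utp18 call in siblings (adjusted p = 0.0097), which rests on 70 to 230 counts per sibling library, was lost with only the sibling groups in the fit (adjusted p = 0.07).

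The enzymes and late factors of the small subunit followed the same course. NAT10, the RNA acetyltransferase, and EMG1, a pseudouridine methyltransferase, rose by 1.60 and 1.86 in siblings (adjusted p = 0.00081 and 0.0018) and by 1.34 and 1.70 in mutants (adjusted p = 0.0032 and 0.0039). RCL1, which belongs to the family of RNA cyclases, rose by 2.20 and 1.64. BYSL, NOB1 and LTV1, which act on late precursors of the small subunit, rose by 1.93, 1.12 and 1.02 in siblings and 1.37, 1.06 and 1.08 in mutants. UTP20, a very large scaffold protein, was the least even. It was at 19.3, 20.4 and 24.7 CPM in siblings in homeostasis and 88.3, 19.9 and 68.5 CPM at 3 h, so replicate 2 alone stayed at the level of homeostasis. Its sibling call (1.46, adjusted p = 0.037) was lost in 10 of the alternative fits (adjusted p from 0.051 to 0.14), and it was 1.82 (adjusted p = 0.0018) without sibling replicate 2 at 3 h. UTP20 in mutants was at 29.6, 29.1 and 40.2 CPM in homeostasis and 93.2, 40.4 and 106 CPM at 3 h, with replicate 2 again the lowest.

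**Figure D2:**
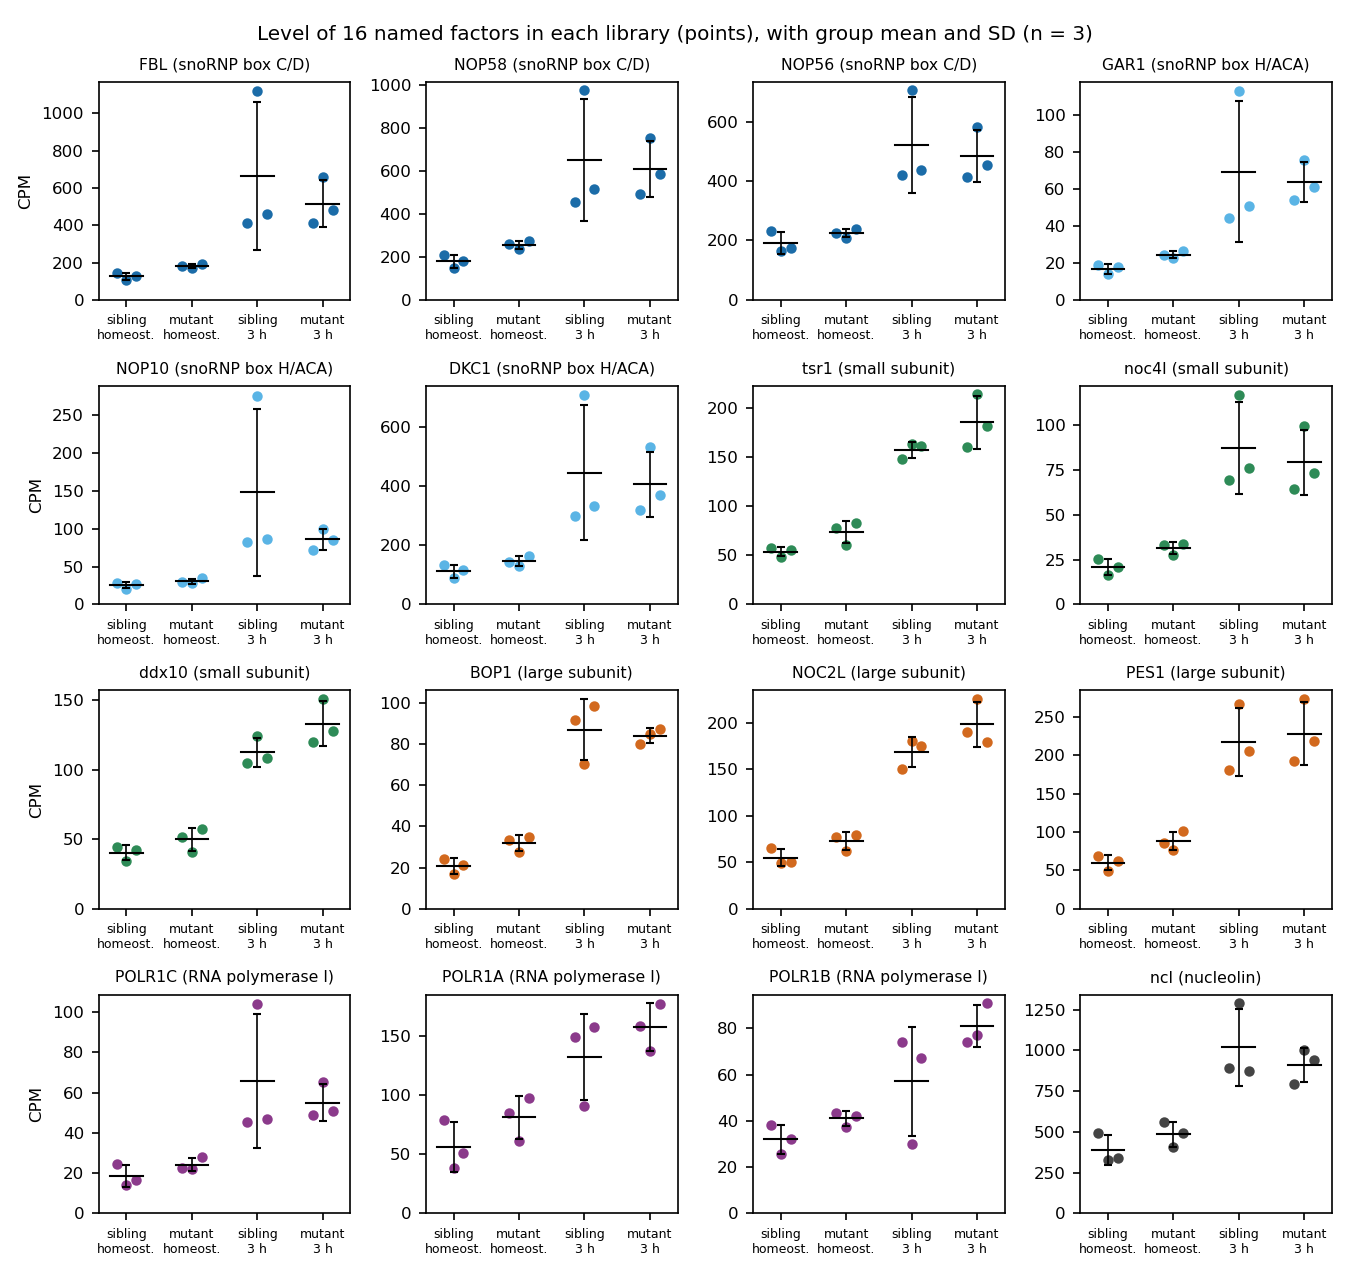
CPM (vertical axis, each panel with its own scale from 0) of 16 named genes in the 4 groups (horizontal axis). Points are the 3 libraries in order of replicate number, the horizontal line is the mean and the bar 1 SD, and in every panel but that of POLR1B the 3 libraries of a genotype at 3 h lie above its 3 libraries in homeostasis.

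All 16 large subunit factors rose in siblings and in mutants, with medians of 1.92 and 1.38. BOP1, PES1 and WDR12 form the PeBoW complex, which is needed for processing of the large subunit rRNA. BOP1 was at 24.3, 16.8 and 21.3 CPM in siblings in homeostasis and 91.9, 70.5 and 98.7 CPM at 3 h, and in mutants at 33.5, 27.4 and 34.8 CPM and then 80, 84.9 and 87.1 CPM. The homeostasis groups did not overlap, and at 3 h the mutant libraries lay within the sibling range. BOP1 rose by 2.06 ± 0.20 in siblings (adjusted p = 2.1e-05), the smallest adjusted p of the 55 genes, and by 1.40 ± 0.19 in mutants (adjusted p = 0.00048). PES1 was at 68.4, 49 and 62 CPM in siblings in homeostasis and 181, 267 and 205 CPM at 3 h, and in mutants at 86.1, 77.2 and 101 CPM and then 193, 273 and 218 CPM. It rose by 1.86 ± 0.22 (adjusted p = 9.6e-05) and 1.37 ± 0.22 (adjusted p = 0.001), and WDR12 by 1.68 and 1.07. All 3 genes of the complex thus passed the test in each genotype, though WDR12 in mutants (adjusted p = 0.029) was lost in 5 of the alternative fits (adjusted p from 0.063 to 0.12).

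NOC2L and NOC3L, whose yeast counterparts form a complex that moves large subunit precursors through the nucleus, rose by 1.62 and 1.47 in siblings and 1.45 and 1.12 in mutants. NOC2L was at 66, 49.3 and 50 CPM in siblings in homeostasis and 151, 181 and 175 CPM at 3 h. Its mutant libraries held 77.4, 61.9 and 79.1 CPM and then 190, 226 and 180 CPM, and the groups within each genotype were well apart (adjusted p = 9.2e-05 in siblings and 0.00029 in mutants). The nucleolar GTPases GNL2, GNL3 (nucleostemin) and GNL3L rose by 1.24, 1.71 and 1.35 in siblings and 1.15, 1.28 and 1.09 in mutants. The largest sibling changes of the role were those of RRS1 (2.46), nop16 (2.45), NIP7 (2.36), MRTO4 (2.27) and EBNA1BP2 (2.20). In each of these 5 genes sibling replicate 2 at 3 h was 2.74 to 3.65 times the mean of the others of its group. nop16, for instance, was at 67.8, 286 and 89 CPM there. Without that library RRS1, nop16, NIP7, MRTO4 and EBNA1BP2 rose by 1.55, 1.49, 1.65, 1.44 and 1.45. In mutants these 5 genes rose by 1.42 to 1.66, and their calls, in the same order, were lost in 6, 5, 1, 6 and 3 of the alternative fits.

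The 3 RNA polymerase I subunits had the lowest medians of the roles with more than 1 gene, 1.24 in siblings and 0.98 in mutants. POLR1A and POLR1B, the pair that forms the catalytic centre, are joined here by POLR1C, which RNA polymerase III shares. POLR1A was at 78.7, 38 and 51.2 CPM in siblings in homeostasis and 149, 90.6 and 157 CPM at 3 h, and in mutants at 84.4, 61.4 and 97.3 CPM and then 158, 137 and 177 CPM. POLR1B was at 38.2, 25.7 and 32.3 CPM and then 74.1, 30.2 and 67.1 CPM in siblings, and at 43.5, 37.4 and 42.3 CPM and then 74.3, 77.3 and 91.2 CPM in mutants. Sibling replicate 2 at 3 h was the lowest of its group for both. POLR1C was at 24.7, 14.1 and 16.8 CPM and then 45.6, 104 and 47.1 CPM in siblings, where the same library was the highest. In mutants POLR1C was at 22.5, 22.1 and 27.8 CPM and then 48.9, 65.4 and 50.8 CPM.

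The log2 fold changes in siblings were 1.24 ± 0.29 for POLR1A (adjusted p = 0.0089), 0.83 ± 0.28 for POLR1B and 1.82 ± 0.32 for POLR1C (adjusted p = 0.0017). Without sibling replicate 2 at 3 h they were 1.41, 1.09 and 1.27, and POLR1B then passed the test (adjusted p = 0.00059). The POLR1A call in siblings was lost when only the sibling groups entered the fit (adjusted p = 0.055). In mutants the values were 0.96 ± 0.29, 0.98 ± 0.28 and 1.19 ± 0.32 (adjusted p = 0.039, 0.032 and 0.022). Those 3 calls were lost in 7, 6 and 3 of the alternative fits, with adjusted p from 0.055 to 0.17. ncl was at 493, 330 and 341 CPM in siblings in homeostasis and 892, 1290 and 871 CPM at 3 h, and at 560, 406 and 492 CPM and then 795, 1000 and 940 CPM in mutants. It rose by 1.39 ± 0.23 (adjusted p = 0.0011) and 0.91 ± 0.23 (adjusted p = 0.017), and the mutant call was lost in 4 of the alternative fits (adjusted p from 0.057 to 0.087).

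Set side by side, the medians of the roles were spread more widely in siblings than in mutants with all 12 libraries. This turned without sibling replicate 2 at 3 h, when the sibling medians were the less widely spread. The mutant medians they are set against keep mutant replicate 2 at 3 h. In siblings the median log2 fold changes were 1.85 for box C/D, 2.09 for box H/ACA, 1.47 for the small subunit, 1.92 for the large subunit and 1.24 for RNA polymerase I. In mutants they were 1.26, 1.43, 1.27, 1.38 and 0.98 in the same order. Without sibling replicate 2 at 3 h the sibling medians became 1.39, 1.46, 1.35, 1.45 and 1.27. The roles were not tested against each other, since their genes share the same libraries and are not replicates.

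Sibling replicate 2 at 3 h was above both other libraries of its group for 42 of the 55 genes and below both for 12, against 44.1% and 40.8% of all tested genes. The largest ratios to the mean of replicates 1 and 3 were 3.65 for nop16, 3.48 for RRS1, 3.27 for NOP10 and 3.19 for both NHP2 and MRTO4. The smallest were 0.254 for UTP20, 0.382 for HEATR1, 0.428 for POLR1B, 0.454 for RRP12 and 0.496 for NOL6. By role the median ratio was 2.01 for box C/D, 2.78 for box H/ACA, 1.19 for the small subunit, 2.04 for the large subunit and 0.591 for RNA polymerase I. Mutant replicate 2 at 3 h was above both others of its group for 45 genes, against 45.4% of all tested genes, with median ratios by role from 0.934 to 1.39, and UTP20 (0.405) and HEATR1 (0.581) were its lowest too. Sibling replicate 2 at 3 h also held the largest summed level of leukocyte markers (874 CPM, against 242 and 323 in its group) and of liver markers (4870 CPM, against 739 and 2750). Its hair cell markers summed to 9050 CPM against 3410 and 2920, its neuron markers to 328 CPM against 132 and 149, and its ribosomal protein genes to 41300 CPM against 23400 and 21900. It had the lowest TMM factor (0.7556) and the lowest share of counts in no annotated feature (13.57%) of the 12 libraries. Mutant replicate 2 at 3 h had the next lowest of both (0.9165 and 15.67%). What part these have in the values of the 55 genes was not tested.

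**Figure D3:**
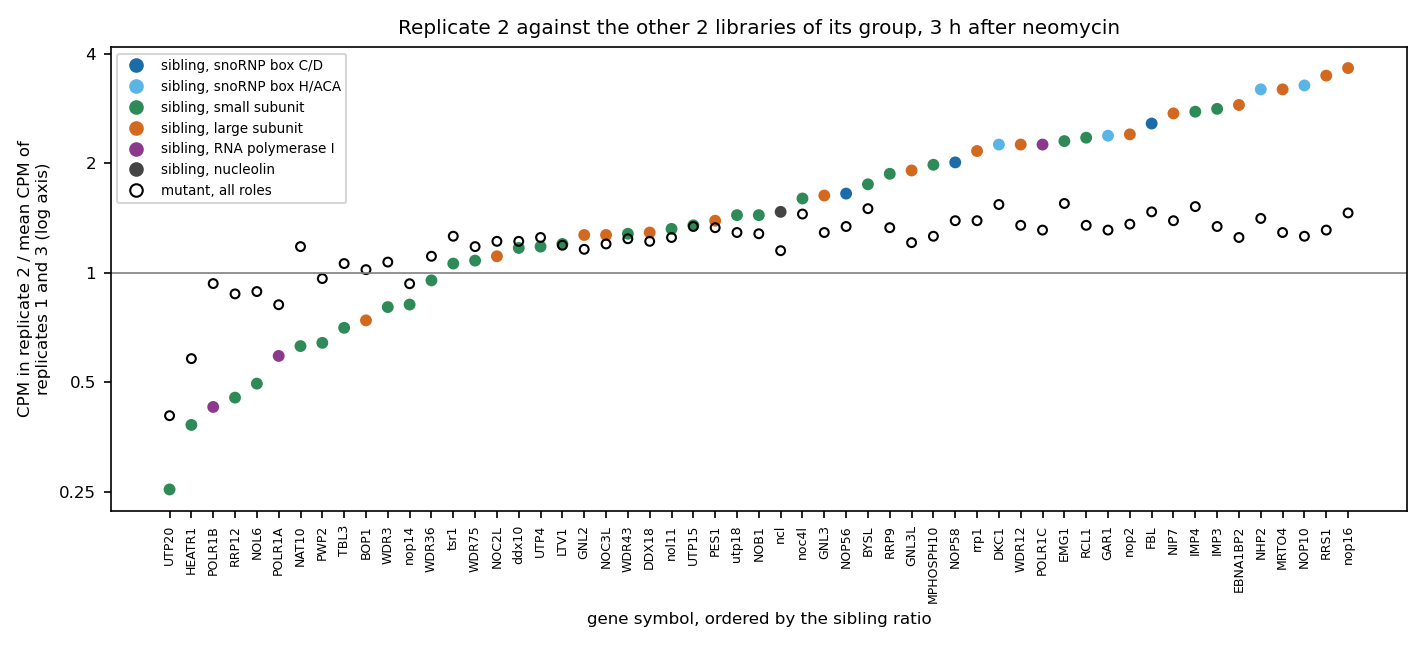
Ratio of the CPM in replicate 2 to the mean CPM of replicates 1 and 3 of the same group at 3 h (vertical axis, log scale) for each of the 55 genes (horizontal axis, ordered by the sibling ratio). Filled points are siblings coloured by role and open circles are mutants, and the sibling ratios run from 0.254 for UTP20 to 3.65 for nop16 while most mutant ratios lie nearer to 1.

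The next comparison asked how mutants differed from siblings without neomycin. All 55 genes had a positive log2 fold change in mutants in homeostasis, where 50.6% of all tested genes did, with a median of 0.40 against 0.01 for all tested genes. None passed the test in edgeR or in DESeq2, where 1.85% of all tested genes were higher and 1.72% lower in edgeR. At an unadjusted p under 0.05, 12 were higher and none lower in edgeR, where 1708 of the 22000 tested genes were higher and 1800 lower. In 25 genes the 3 mutant libraries lay above the 3 sibling libraries, against 14.5% of all tested genes, and in none below. These were 2 of 3 box C/D, 2 of 4 box H/ACA, 10 of 28 small subunit and 11 of 16 large subunit genes, and none of the 3 RNA polymerase I subunits.

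BOP1 had the smallest adjusted p of that comparison (0.62 ± 0.19, adjusted p = 0.11), with 27.4 to 34.8 CPM in mutants above 16.8 to 24.3 CPM in siblings. The largest value was that of NAT10 (0.70 ± 0.25, adjusted p = 0.16), at 66.7, 50.9 and 67 CPM in mutants against 47.3, 26 and 40.1 CPM in siblings. The smallest was that of utp18 (0.04, adjusted p = 0.97), which was −0.16 without sibling replicate 2 in homeostasis. Sibling replicate 2, the lowest library for 52 genes, weighed on the group, and the median of the 55 was 0.26 without it and 0.54 without sibling replicate 1. Leaving out sibling replicate 2 at 3 h, which lies outside this comparison but shares its estimate of the spread, let 5 genes pass. They were BOP1, GNL3, nop2, NAT10 and UTP4, with values from 0.51 to 0.68 and adjusted p from 0.027 to 0.049. In that fit 3.93% of all tested genes were higher and 5.27% lower. With the 2 homeostasis groups alone in the fit, nop2 (0.64) and GNL3 (0.59) passed (adjusted p = 0.044 and 0.039). Of all tested genes, 4.25% were higher and 6.4% lower there. Erythrocyte markers moved with the same contrast, from 119 to 209 CPM in siblings to 1050 to 1480 CPM in mutants (6 of 7 higher), while 5 of 10 skeletal muscle markers were higher and 3 of 13 hair cell markers lower. With single libraries left out, these last counts ran from 2 (without sibling replicates 2 or 3 or mutant replicates 2 or 3 in homeostasis) to 7, and from 0 (without sibling replicate 2 or any 1 mutant library in homeostasis) to 8 (without sibling replicate 2 at 3 h). Their part in the difference was not tested.

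At 3 h after neomycin, values between the genotypes went both ways. None of the 55 passed the test in edgeR or in DESeq2, where 4.9% of all tested genes were higher and 4.88% lower in edgeR. At an unadjusted p under 0.05, 2316 of all tested genes were higher and 3450 lower in edgeR. Of the 55, only 1 gene was higher at that level and none lower. It was UTP4 (0.42 ± 0.18, unadjusted p = 0.038, adjusted p = 0.16), at 130, 172 and 144 CPM in mutants against 107, 123 and 101 CPM in siblings. In all, 31 values were positive and 24 negative, where 40.9% and 59.1% of all tested genes were, with a median of 0.07 against −0.14 for all tested genes. The range ran from −0.79 for NOP10 (adjusted p = 0.21) to 0.54 for NOL6 (adjusted p = 0.24). In 6 genes, WDR3, WDR75, UTP4, NAT10, NOL6 and POLR1B, all mutant libraries lay above all sibling libraries, against 12.3% of all tested genes. Without sibling replicate 2 at 3 h, 53 of the 55 values were positive with a median of 0.27, NOP10 was at 0.03, and again none passed. Leaving out mutant replicate 2 at 3 h instead moved the values the other way, with 23 positive and 32 negative.

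The difference between the responses was tested as the interaction of genotype and treatment. None of the 55 passed in edgeR or DESeq2. Of all tested genes, 22 (0.1%) had a more positive change in mutants than in siblings and 1 (0.00455%) a more negative one in edgeR. Values were negative for 52 genes, a smaller rise in mutants, and positive for 3, where 59.9% and 40.1% of all tested genes were, with a median of −0.35 against −0.14 for all tested genes. They ran from −1.05 for NOP10 (adjusted p = 0.6) to 0.14 for POLR1B. BOP1 had the smallest p (−0.67 ± 0.27, unadjusted p = 0.029, adjusted p = 0.5), the only one under 0.05 unadjusted. Of all tested genes, 924 were positive and 1031 negative at that level. Without sibling replicate 2 at 3 h the median was −0.10, with 40 values negative and 15 positive, POLR1B at −0.12 and BOP1 at −0.76 (adjusted p = 0.16). Leaving out mutant replicate 2 at 3 h instead gave 51 negative and 4 positive values. The sibling and mutant responses share no libraries, whereas the interaction and each of the other comparisons share libraries.

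**Figure D4:**
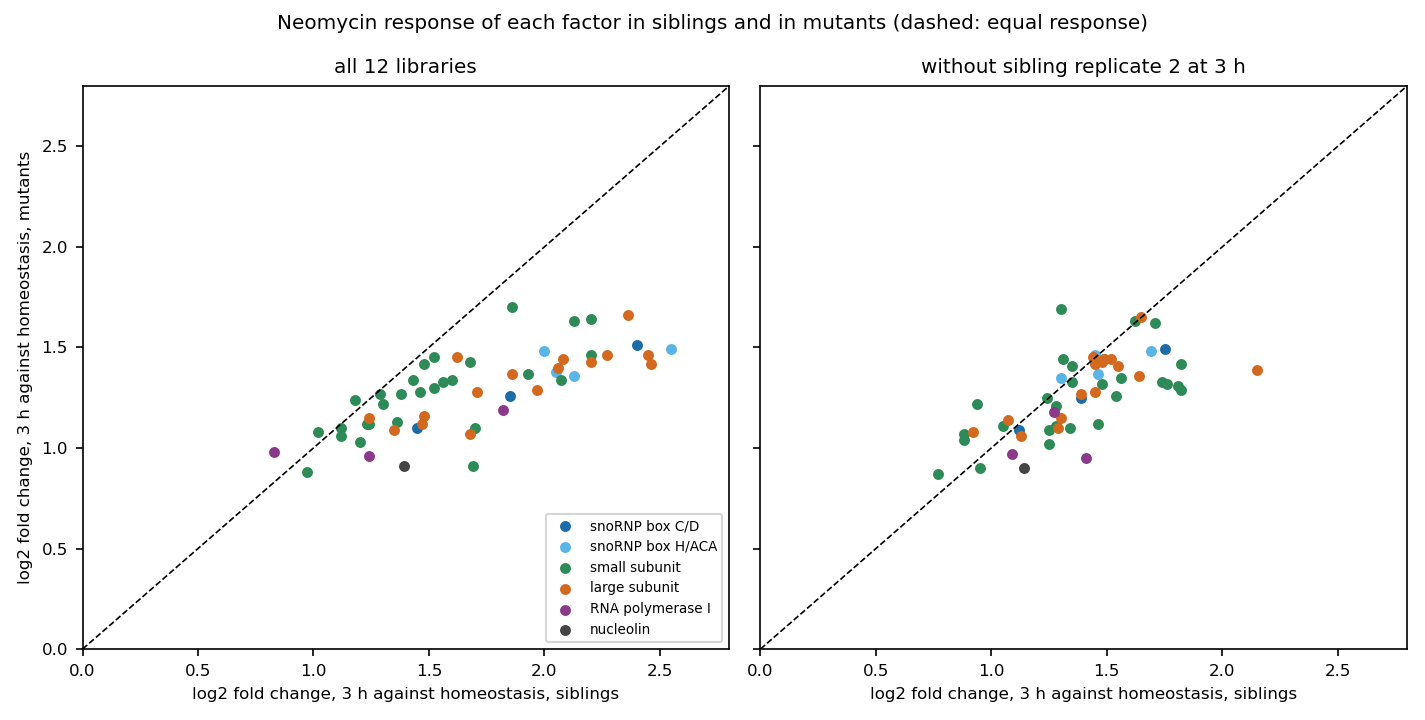
Log2 fold change at 3 h against homeostasis in siblings (horizontal axis) and in mutants (vertical axis) for each of the 55 genes, coloured by role, with the dashed line at equal responses. With all 12 libraries (left) 52 of 55 points lie below the line, and without sibling replicate 2 at 3 h (right) 40 do.

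Further genes of the same pathway were taken from lists put together by function. Of 118 other biogenesis factors, 95 rose and none fell in siblings, with a median log2 fold change of 1.45, and 82 rose and none fell in mutants, with a median of 1.13. The mutant count was 50 without mutant replicate 2 in homeostasis and 54 without mutant replicate 2 at 3 h. Among 33 further small subunit factors, 31 rose in siblings and 28 in mutants (medians 1.57 and 1.23), led by the helicase gene DHX37, dnttip2, UTP25 and the GTPase gene BMS1. DHX37 rose from 20.5 ± 4.73 to 73 ± 5.32 CPM in siblings (SD, n = 3) and from 25.6 ± 2.7 to 72.3 ± 4.92 CPM in mutants. Among 45 further large subunit factors, 33 rose in siblings and 34 in mutants (medians 1.3 and 1.08). The mutant count was 19 to 22 without mutant replicates 1 or 2 in homeostasis or replicates 2 or 3 at 3 h. FTSJ3, an rRNA methyltransferase gene, rose most clearly, from 33.5 ± 4.62 to 155 ± 18.3 CPM in siblings (2.21 ± 0.17, adjusted p = 8.1e-06) and from 63.4 ± 2.57 to 171 ± 12.9 CPM in mutants (1.43 ± 0.17, adjusted p = 0.00015).

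Of 13 further genes of RNA polymerase I transcription, 10 rose in siblings and 8 in mutants (medians 1.39 and 1.05, or 0.86 and 1.03 without sibling replicate 2 at 3 h). The mutant count was 3 to 5 without any mutant replicate in homeostasis or mutant replicates 2 or 3 at 3 h. RRN3, the initiation factor that recruits the polymerase, rose by 0.92 ± 0.16 in siblings (adjusted p = 0.0018) and by 1.05 ± 0.17 in mutants (adjusted p = 0.0011). mybbp1a, a nucleolar Myb-binding protein gene, rose by 1.71 and 1.33. Of 14 snoRNP assembly genes, 10 rose in siblings and 9 in mutants (medians 1.06 and 0.92), among them nolc1, a snoRNP chaperone gene, by 1.29 and 1.07. That mutant count was 5 without mutant replicate 2 in homeostasis. Among 13 genes of the RNA exosome, which trims rRNA precursors, 11 rose in siblings (5 with only the sibling groups in the fit) and 3 in mutants, a count that ran from 0 to 11 as single libraries were dropped. Their medians were 1.52 and 1.05, or 0.97 and 1.03 without sibling replicate 2 at 3 h.

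Between genotypes these further factors gave few calls. In homeostasis 2 of 118 were higher in mutants and none lower, where 1.85% of all tested genes were higher and 1.72% lower. They were FTSJ3 (0.92, adjusted p = 0.01) and dnttip2 (0.82, adjusted p = 0.016), and the median of the 118 was 0.27. dnttip2 went from 43.9 ± 3.9 CPM in siblings to 77.7 ± 11 CPM in mutants. The FTSJ3 call was lost without sibling replicate 2 in homeostasis (adjusted p = 0.065), and the dnttip2 call without 4 of the homeostasis libraries (adjusted p from 0.062 to 0.091). Leaving out sibling replicate 2 at 3 h gave 6 higher, where 3.93% of all tested genes were higher. At 3 h RIOK3, an atypical kinase gene of the small subunit pathway, was higher in mutants. Its level was 162 ± 35.5 CPM in mutants against 66.2 ± 11.3 CPM in siblings (1.29 ± 0.22, adjusted p = 0.0035). RIOK3 was the 1 call of the 118 in that direction, where 4.9% of all tested genes were higher and 4.88% lower. Without sibling replicate 2 at 3 h 5 were called higher, where 7.09% of all tested genes were. The nucleophosmin gene npm1b (−0.89, adjusted p = 0.048) and the polymerase I factor gene ubtfl (−0.56, adjusted p = 0.041) were lower, calls lost in 14 and 12 of the alternative fits, the replicate block being one of them for npm1b.

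Genes around the pathway moved less. For their counts after neomycin, the shares over all tested genes were 11.2% risen and 10.8% fallen in siblings, and 6.95% and 9.56% in mutants. In a list of 14 genes for the RNA polymerase III factor of the smallest rRNA, its carriers and nuclear transport, 9 rose in siblings and 6 in mutants (medians 0.72 and 0.60). These counts ran from 5 to 10 and from 1 to 11 over the fits that left 1 library out. GTF3A, that transcription factor, rose by 1.42 and 0.93, and HEATR3, which helps carry ribosomal proteins into the nucleus, by 1.09 and 1.17. The export receptor gene xpo1a was the 1 gene of that list higher in mutants at 3 h, where 4.9% of all tested genes were higher. It was at 193 ± 19.1 CPM in mutants against 90.9 ± 32.1 CPM in siblings (1.09 ± 0.24, adjusted p = 0.015). That call was lost in 3 of the alternative fits (adjusted p from 0.053 to 0.11). With the replicate block 2 genes of the list were called, where 6.05% of all tested genes were higher and 6.62% lower. Of 14 genes of the network around Myc, a transcription factor known to activate ribosome biogenesis genes, 3 rose and 1 fell in siblings. The count of risen genes was 1 without sibling replicate 2 in homeostasis or with only the sibling groups in the fit. MYCN rose from 57.5 ± 2.86 to 148 ± 18.5 CPM in siblings (1.36 ± 0.19, adjusted p = 0.0003) and from 79.7 ± 16 to 149 ± 16.1 CPM in mutants (0.90 ± 0.19, adjusted p = 0.0054). MXI1, a repressor of the network, fell by 0.86 in siblings (adjusted p = 0.0086) and by 0.80 in mutants (adjusted p = 0.017), the latter lost in 4 of the alternative fits. In mutants 5 genes of the network rose and 2 fell, a count of risen genes that went down to 1 without mutant replicate 1 in homeostasis. Of 17 proliferation genes, none passed in any of the 5 comparisons in edgeR with all 12 libraries. At an unadjusted p under 0.05, 1 was higher in siblings after neomycin, and 1 was higher and 1 lower in mutants. Of all tested genes, 4079 were higher and 3454 lower at that level in siblings, and 2851 higher and 3475 lower in mutants. When sibling replicate 2 at 3 h was left out, 1 of the 17 rose in siblings, 2 fell in mutants and 2 were lower in mutants than in siblings at 3 h. The shares of all tested genes there were 9.2%, 14.3% and 6.02% in the same order. In the mutant response 1 of the 17 was higher with the replicate block and with DESeq2, where 8.1% and 10.7% of all tested genes were. With only the mutant groups in the fit 1 was higher and 2 lower, where 14.4% and 15.4% of all tested genes were. The median of the 17 genes was 0.38 in siblings, or 0.14 without sibling replicate 2 at 3 h, and −0.22 in mutants.

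The genes of the ribosomal proteins themselves, a list drawn by name after the values had been seen, had medians of 1.02 in siblings and 0.49 in mutants over 76 tested genes, or 0.58 and 0.47 without sibling replicate 2 at 3 h. In siblings 74 rose and 1 fell, but 40 and 28 rose without sibling replicates 1 and 2 in homeostasis and 3 with only the sibling groups in the fit. In mutants 3 rose and 1 fell, and 54 rose without sibling replicate 2 at 3 h.

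**Figure D5:**
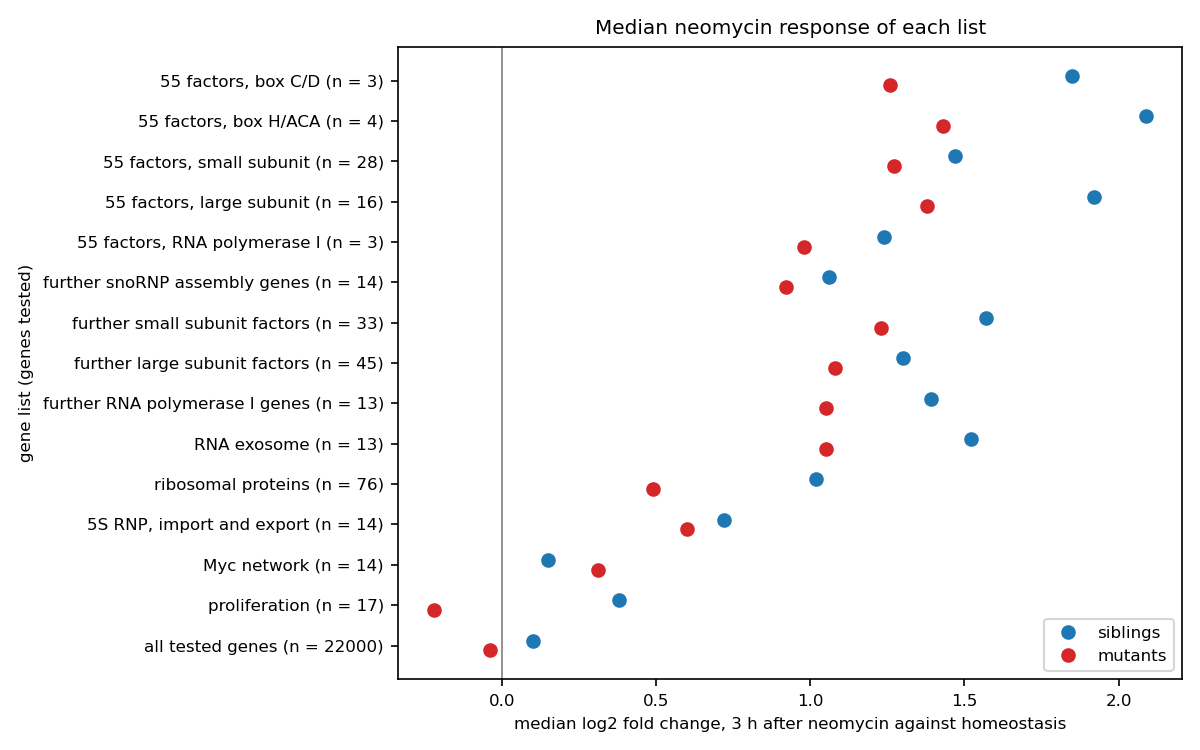
Median log2 fold change at 3 h against homeostasis (horizontal axis) for each role of the 55 genes with more than 1 gene, for the further gene lists and for all tested genes (vertical axis, with the number of genes tested), in siblings (blue) and mutants (red). These roles, the further biogenesis lists and the RNA exosome lie between 0.92 and 2.09, and all tested genes at 0.10 and −0.04.

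Other cell types moved with the neomycin response too. The shares over all tested genes were 11.2% risen and 10.8% fallen in siblings, and 6.95% and 9.56% in mutants. Of 13 hair cell markers, 9 fell in each genotype and 1 rose in siblings, with medians of −1.89 in siblings and −2.08 in mutants. Of 15 support cell markers, isl1a among them, 1 rose and 3 fell in each genotype, with medians of 0.23 and −0.22. The sibling medians were −2.41 for hair cell and −0.12 for support cell markers without sibling replicate 2 at 3 h. In siblings 3 of 7 erythrocyte, 3 of 7 epidermis and 3 of 8 neuron markers rose, and 1 epidermis marker fell. In mutants 2 neuron markers rose, while 1 epidermis and 3 of 10 skeletal muscle markers fell. Of 13 tested leukocyte markers, 9 rose in siblings and 2 in mutants, and their summed level went from 44.2 to 110 CPM to 242 to 874 CPM in siblings and from 94.7 to 139 CPM to 146 to 301 CPM in mutants. The loss of hair cell transcripts and the rise of the 55 genes occurred in the same libraries, and what part a change in cell makeup has in the rise was not tested.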

How the data were processed

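RNA-seq libraries were made without strand information from mCherry-positive sorted cells, in 4 groups of 3. The 18 ATAC-seq samples of the series are not analysed here. The authors deposited raw read counts per gene for each library. Per the submitters' processing notes, bcl2fastq 2.18, STAR 2.7.3a, RSEM, Bowtie2 and the danRer11 build were used, with no role or order stated. This leaves annotation release and counting settings not given in the sources used here. Reads from a gene and an antisense or overlapping gene, or from near-identical copies, cannot be told apart in these counts. Rows that name no gene held 28.18 to 35.23% of all counts and were left out of library sizes.

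Counts were scaled by TMM and tested in R 4.3.3 with edgeR 4.0.16 (quasi-likelihood test), after edgeR's filter on low counts left 22000 of 32520 genes. All 12 libraries entered a single fit with the 4 groups. The 5 contrasts were mutant against sibling at each state, 3 h against homeostasis in each genotype, and their interaction, with p-values adjusted by Benjamini-Hochberg over all tested genes at a threshold of 0.05. Levels are TMM-scaled CPM, not per length, so they are not compared between genes. A value with ± is followed by the SE of a log2 fold change or, for a level, by the SD. The biological coefficient of variation was 32.3%. The test was checked on simulated counts. Alternatives were DESeq2 1.42.0, its size factors, no filter, a replicate block, only the groups of a contrast, and leaving out each library. The labels tie no replicate number to a shared clutch or day. Deviations from the group means of same-numbered libraries correlated at 0.192 to 0.46 between the 2 groups at 3 h, all 3 pairs over 0.1. The deviations within a group cancel out, so these 3 values are not independent. Replicate 2 stood apart in both of these groups. Paired libraries and an odd replicate 2 in each group cannot be told apart here. For every other 2 groups at least 1 pair was under 0.1, and they were not taken as paired. The main fit held no replicate term, so its genotype test at 3 h did not use any pairing.

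Named genes were every gene of the 55 called in a contrast (up to 20 by adjusted p), 3 of each role by smallest adjusted p, with values in every library, and up to 4 called genes of each further list. Other genes of the 55 are named to cover each role. The genes and lists were chosen with earlier results of these data known.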

Additional observations from a re-analysis of the deposited data

How the results depend on the processing

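The neomycin counts over the 55 genes kept their direction in the alternatives run: 50 to 55 rose in siblings and 36 to 55 in mutants, with none lower. Leaving out 1 library gave 52 to 55 in siblings and 36 to 55 in mutants, and medians of 1.39 to 1.71 and 1.16 to 1.39. Only the groups of a contrast gave 50 in siblings and 55 in mutants, and DESeq2 gave 55 in both. Same-numbered replicates correlated at −0.059 to 0.46, over 0.1 in 9 of 18 pairs. In the 2 groups at 3 h all 3 pairs were over 0.1 (0.302, 0.46 and 0.192), and for no other 2 groups. The replicate block gave 55 in siblings, 54 in mutants and 0 in the other 3 contrasts. That block put the same replicate effects on all 4 groups, so a pairing only at 3 h was not fitted by itself. In homeostasis between genotypes the count of higher genes was 2 with only the 2 groups in the fit, where 4.25% of all tested genes were higher. It was 0 to 5 over libraries left out, with medians of 0.26 to 0.54. The 5 came without sibling replicate 2 at 3 h, where 3.93% of all tested genes were higher. At 3 h the median between genotypes was −0.04 to 0.27, with 0 genes called. The median of the difference between responses was −0.48 to −0.10, the latter without sibling replicate 2 at 3 h. Signs depended on single libraries. Leaving out mutant replicate 2 at 3 h gave 23 positive values of 55 between genotypes at 3 h. Without sibling replicate 2 at 3 h, positive values went from 31 to 53 of 55 between genotypes at 3 h and from 3 to 15 in the difference between responses, NOP10 at 3 h turning to 0.03 (adjusted p = 0.92) and POLR1B in the difference to −0.12 (adjusted p = 0.88). Without sibling replicate 2 in homeostasis 2 of 55 were negative there, among them utp18 (−0.16, adjusted p = 0.95). With other single libraries left out, NOP10 at 3 h went down to −1.06 and POLR1B in the difference up to 0.41. The cause was not tested. Depth was 23918226 counts or more in genes per library, and the least counted values rest on few reads (utp18, 70 in 1 library).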
